A study of Mus musculus with 6 samples.

Results

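The transcription factor ATF4, 5 of its stress and amino-acid targets (Ddit3, Trib3, Chac1, Asns and Sesn2), the mTORC1 regulator Ddit4 and the 3 enzymes of serine synthesis (Phgdh, Psat1 and Psph) were followed in cultured CD63+ mouse liver cells. The 10 genes were chosen by name, with earlier results of these data known. Every probe whose transcript carries one of these symbols was taken. This gave 10 of the 20659 genes named on the array, read by 14 of its 39429 probes that are not controls. Atf4, Psat1, Phgdh and Psph have 2 probes each, and the other 6 genes have 1. All 14 probes passed the filter on dim probes and were tested.

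The series holds 6 samples, 3 labelled DDC injury and 3 labelled no injury. DDC is a porphyrinogenic compound that is fed to mice to damage bile ducts and to provoke a ductular reaction. In both groups CD63+ cells were sorted from adult mouse liver and grown in DMEM/F12 with serum, HGF, EGF, insulin, transferrin, selenium, dexamethasone, nicotinamide and 2-mercaptoethanol, so the RNA is that of cultured cells and not of liver tissue. The labels give no strain, age, sex or DDC dose, and the design text calls the samples cell lines, so each sample may stand for 1 line. Some cultures also received VEGF and bFGF, but the labels name them by codes that no sample title uses, and the names of 2 no-injury files carry the same numbers, so a part of these factors in the differences cannot be told apart from that of injury. Nothing states that the samples of a group came from separate mice, and the p-values measure the spread between these samples only.

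Each sample was hybridised to 1 single-colour array with 43020 spots that are not controls, of which 65.0% to 74.8% were well above background and 0 were saturated. Levels are log2 processed signals relative to the 75th percentile of the array, so a level of 1 lies 2-fold above that percentile. Over 118 probes printed 10 times, no-injury replicates 1 and 3 differed by no more than the noise of repeated spots (chi-square 125.9, df 117, p = 0.271). They were averaged and counted as 1 sample, which leaves 3 DDC injury samples against 2 no-injury samples. Between DDC injury replicates the spread over these probes was 3.88 times (replicates 1 and 3) to 13.5 times (replicates 2 and 3) the spot noise, against 1.3 and 1.69 times for no-injury replicate 2 set against replicates 1 and 3. DDC injury replicate 1 was scanned alone, DDC injury replicates 2 and 3 together and the no-injury arrays together, so each scan holds 1 group.

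ATF4 is the effector of the integrated stress response. The kinases PERK, GCN2, HRI and PKR phosphorylate eIF2alpha under unfolded protein, amino acid shortage, haem or mitochondrial stress and viral RNA, which lowers general translation but favours translation of Atf4 mRNA through its upstream open reading frames. ATF4 then binds, often with a C/EBP partner, to C/EBP-ATF response elements in genes for amino acid import, amino acid synthesis and tRNA charging, and in genes such as Ddit3 (CHOP), Trib3 and Chac1 that act under prolonged stress. Phgdh, Psat1 and Psph carry the glycolytic intermediate 3-phosphoglycerate to serine, which feeds glycine, glutathione and one-carbon units for nucleotides. Since Atf4 is regulated mainly at translation, its mRNA level is not a measure of ATF4 protein, which was not measured here.

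The promoters of Chac1, Asns and Trib3 are shown because they hold the core of the C/EBP-ATF response element within 250 bases before and 50 bases after the annotated start. All 10 genes were found in the RefSeq promoter table of build GRCm38.p6, with 11 promoters in all because Psat1 has 2. The core searched was TGATGNAA, or TTNCATCA as its reverse complement, on both strands, and it occurs in 3.97% of the 32851 promoters of this length and in 3 of the 11 listed for the 10 genes. The Chac1 match is TTGCATCA, a form found in 0.895% of these promoters. Chac1 lies on the plus strand (chr2:119350992-119351291), Asns on the minus strand (chr6:7693160-7693459) and Trib3 on the minus strand (chr2:152344011-152344310). Each is written 5′ to 3′ along the gene, with the match in capitals.
Chac1: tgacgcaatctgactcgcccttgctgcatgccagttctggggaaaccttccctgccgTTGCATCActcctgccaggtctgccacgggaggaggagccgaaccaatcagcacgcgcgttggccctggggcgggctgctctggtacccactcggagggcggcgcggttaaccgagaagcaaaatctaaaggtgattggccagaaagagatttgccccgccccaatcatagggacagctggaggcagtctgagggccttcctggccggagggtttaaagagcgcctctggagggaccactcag
Asns: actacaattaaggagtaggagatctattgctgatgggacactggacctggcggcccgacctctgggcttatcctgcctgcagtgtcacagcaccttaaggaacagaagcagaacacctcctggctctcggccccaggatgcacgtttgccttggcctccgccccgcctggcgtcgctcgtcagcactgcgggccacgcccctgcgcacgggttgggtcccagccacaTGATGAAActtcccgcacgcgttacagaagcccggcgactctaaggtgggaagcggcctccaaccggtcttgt
Trib3: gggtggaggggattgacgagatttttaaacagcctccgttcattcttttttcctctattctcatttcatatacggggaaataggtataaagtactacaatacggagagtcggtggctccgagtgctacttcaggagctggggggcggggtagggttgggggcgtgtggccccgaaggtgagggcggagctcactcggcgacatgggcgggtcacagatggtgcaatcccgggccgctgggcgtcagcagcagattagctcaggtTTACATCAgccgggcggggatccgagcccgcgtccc
A match here is a run of letters and not a measured binding site. The absence of a match in the other 8 promoters says only that these letters are not in the window. The longer endoplasmic reticulum stress element (ERSE), searched on both strands as well, occurs in 39 of the 32851 promoters (0.119%) and in 0 of the 11.

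Of the 14 probes, 7 were higher in DDC injury cells, 0 were lower and 7 did not pass the test, where 15.5% of all 27428 tested probes were higher and 13.8% were lower (limma, adjusted p under 0.05 over all probes). At an unadjusted p under 0.05, 9 were higher and 0 lower. No share of all probes or genes at an unadjusted p is given in this report. Counts at that threshold, here and below, therefore have no reference and cannot be set against the adjusted shares. The 7 called probes belong to Atf4, Psat1, Phgdh, Psph and Ddit4. All 14 differences were above 0, with a median of 1.20 log2 units against -0.10 for all tested probes. Of the 14, 8 were at least 2-fold, a count given without a share of all tested probes. In 13 probes every DDC injury array lay above every no-injury array, which held for 29.6% of all tested probes, and in 0 probes every DDC injury array lay below, against 31.5%. The exception was Ddit3. As the genes were chosen with earlier results of these data known, the contrasts with all tested probes are a description. The groups differed greatly in their spread: the 3 no-injury arrays lay within 0.02 to 0.12 log2 units of each other in each probe, while the DDC injury arrays spanned 0.08 to 2.94.

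**Figure D1:**
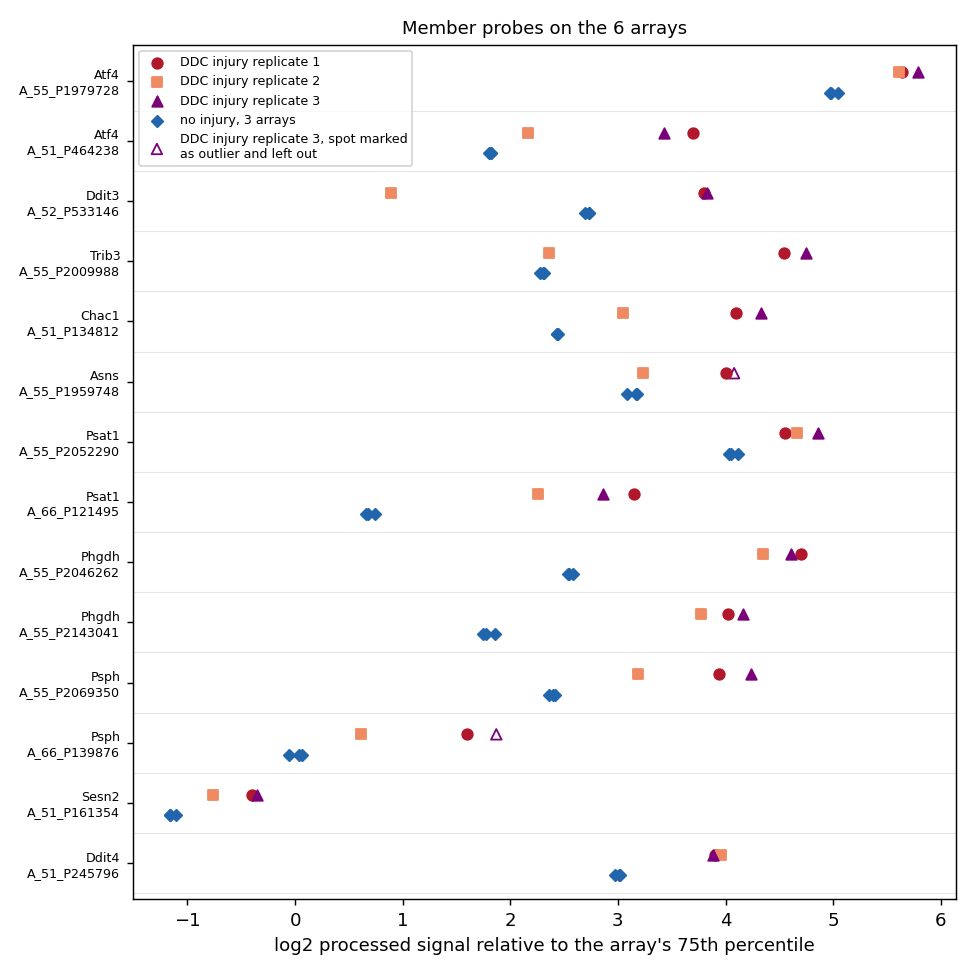
Level of each of the 14 probes on the 6 arrays, as log2 processed signal relative to the array's 75th percentile, with 1 symbol per DDC injury replicate and blue diamonds for the no-injury arrays. The no-injury arrays nearly coincide, and DDC injury replicate 2 lies far below the other DDC injury arrays for Ddit3 (0.89 against 3.80 and 3.83) and Trib3 (2.36 against 4.54 and 4.75). Open triangles are spots of DDC injury replicate 3 that were marked as outliers and left out.

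Among the 10 genes, those of serine synthesis held the largest called differences, and also the smallest, at 0.62 for the brighter Psat1 probe. Phgdh, which oxidises 3-phosphoglycerate in the first and committed step, was about 4-fold higher in DDC injury cells by both of its probes. Probe A_55_P2046262 read 4.70, 4.35 and 4.61 in DDC injury cells, against 2.54, 2.55 and 2.58 in no-injury cells. All 3 DDC injury arrays were well separated from all 3 no-injury arrays, and the difference was 2.00 ± 0.15 log2 units (SE; 3.99-fold, limma adjusted p = 0.00338, 3 against 2 samples). Probe A_55_P2143041 read 4.02, 3.77 and 4.16 in DDC injury cells, against 1.77, 1.86 and 1.75 in no-injury cells. The groups again did not overlap, with a difference of 2.17 ± 0.16 (4.51-fold, adjusted p = 0.0033).

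Psat1, the aminotransferase of the second step, which takes its amino group from glutamate, rose by both probes but by different amounts. Probe A_66_P121495 read 3.15, 2.26 and 2.86 in DDC injury cells, against 0.68, 0.66 and 0.74 in no-injury cells. The groups did not overlap and DDC injury replicate 2 was the lowest of its group, with a difference of 2.07 ± 0.30 (4.21-fold, adjusted p = 0.0125). Probe A_55_P2052290 read 4.55, 4.66 and 4.86 in DDC injury cells, against 4.05, 4.12 and 4.03 in no-injury cells. Here replicate 2 lay between the other DDC injury arrays, and the difference was 0.62 ± 0.14 (1.53-fold, adjusted p = 0.0375). Which transcripts or exons each probe reads is not given in the sources used here. The smaller difference lost its call in 7 of 18 alternative settings, among them quantile normalization (adjusted p = 0.0715) and leaving out DDC injury replicate 2 (adjusted p = 0.0547).

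Psph, the phosphatase that releases serine in the last step, was called higher by 1 of its 2 probes. Probe A_55_P2069350 read 3.94, 3.19 and 4.24 in DDC injury cells, against 2.36, 2.42 and 2.40 in no-injury cells. The groups did not overlap and replicate 2 was again the lowest DDC injury array, with a difference of 1.39 ± 0.35 (2.62-fold, adjusted p = 0.0466) that passed in 10 of 18 alternative settings. Probe A_66_P139876 read 1.60 and 0.61 in DDC injury replicates 1 and 2, against 0.06, -0.06 and 0.04 in no-injury cells. Its spot on replicate 3, at 1.87, was marked as an outlier by the scanner software and left out. The difference was 1.11 ± 0.40 with 2 DDC injury values (2.16-fold, adjusted p = 0.136), and 1.37 (adjusted p = 0.0772) with that spot kept.

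Atf4 itself was called higher by 1 of its 2 probes. Probe A_55_P1979728 read 5.64, 5.61 and 5.79 in DDC injury cells, against 4.98, 4.97 and 5.05 in no-injury cells. The 3 DDC injury arrays lay close together and above all no-injury arrays, with a difference of 0.69 ± 0.12 (1.61-fold, adjusted p = 0.0183). The call was lost in 6 of 18 alternative settings. The difference was 0.41 after quantile normalization (adjusted p = 0.0815), 0.39 after normexp background correction with the same scaling (adjusted p = 0.157), 0.21 in the authors' values (adjusted p = 0.275) and 0.63 without DDC injury replicate 3 (adjusted p = 0.0521). Probe A_51_P464238 read 3.70, 2.16 and 3.43 in DDC injury cells, against 1.80, 1.82 and 1.82 in no-injury cells. Replicate 2 lay just above the no-injury arrays and 1.40 below the mean of replicates 1 and 3, and the difference of 1.28 ± 0.51 (2.43-fold) did not pass (adjusted p = 0.138).

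Trib3, Chac1 and Ddit3, which act late in the stress response, had high levels in DDC injury replicates 1 and 3 but not, or less so, in replicate 2, and none of the 3 passed the test. Trib3, a pseudokinase that binds ATF4 and AKT, read 4.54, 2.36 and 4.75 in DDC injury cells, against 2.31, 2.28 and 2.30 in no-injury cells. Against the no-injury mean it stood at 4.76-fold in replicate 1, 1.05-fold in replicate 2 and 5.48-fold in replicate 3. The difference was 1.59 ± 0.82 (3.01-fold, adjusted p = 0.22).

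Chac1, a glutathione-degrading gamma-glutamylcyclotransferase, read 4.10, 3.05 and 4.33 in DDC injury cells, against 2.43, 2.44 and 2.43 in no-injury cells. All 3 DDC injury arrays lay above the no-injury arrays, by 3.18-fold, 1.53-fold and 3.73-fold, and the difference was 1.39 ± 0.43 (2.63-fold, adjusted p = 0.0789). It passed in 5 of 18 alternative settings, among them normexp background correction (adjusted p = 0.0337) and the authors' values (adjusted p = 0.033).

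Ddit3, which encodes CHOP, a C/EBP-family factor tied to apoptosis under unresolved stress, was the member whose groups overlapped. It read 3.80, 0.89 and 3.83 in DDC injury cells, against 2.73, 2.73 and 2.69 in no-injury cells. Replicates 1 and 3 were 2.12-fold and 2.16-fold above the no-injury mean, while replicate 2 was 3.56-fold below it. The difference was 0.12 ± 1.04 (1.09-fold, adjusted p = 0.942), and its sign turned in 4 of 18 alternative settings. Of these 4, scan day as a covariate and leaving out replicate 1 amount to the same comparison.

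Asns, which makes asparagine from aspartate and glutamine, read 4.0 and 3.23 in DDC injury replicates 1 and 2, against 3.18, 3.08 and 3.17 in no-injury cells. Its spot on replicate 3, at 4.08, was marked as an outlier and left out. Replicate 2 lay just above the highest no-injury array, and the difference was 0.48 ± 0.32 with 2 DDC injury values (1.40-fold, adjusted p = 0.35), or 0.64 (adjusted p = 0.194) with the marked spot kept.

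The 2 regulators of mTORC1 among the 10 genes differed in their calls. Ddit4 (REDD1), which restrains mTORC1 through the TSC complex and also answers to hypoxia, glucocorticoid and p53, read 3.90, 3.96 and 3.88 in DDC injury cells, against 3.01, 2.97 and 3.02 in no-injury cells. Both groups were tight and did not overlap, with a difference of 0.92 ± 0.10 (1.89-fold, adjusted p = 0.00735). Sesn2, a leucine-sensing inhibitor of mTORC1 that p53 also drives, read -0.40, -0.76 and -0.35 in DDC injury cells, against -1.16, -1.11 and -1.16 in no-injury cells. The groups did not overlap, but the difference of 0.63 ± 0.17 (1.55-fold) missed the threshold (adjusted p = 0.0567) and passed in 7 of 18 alternative settings.

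**Figure D2:**
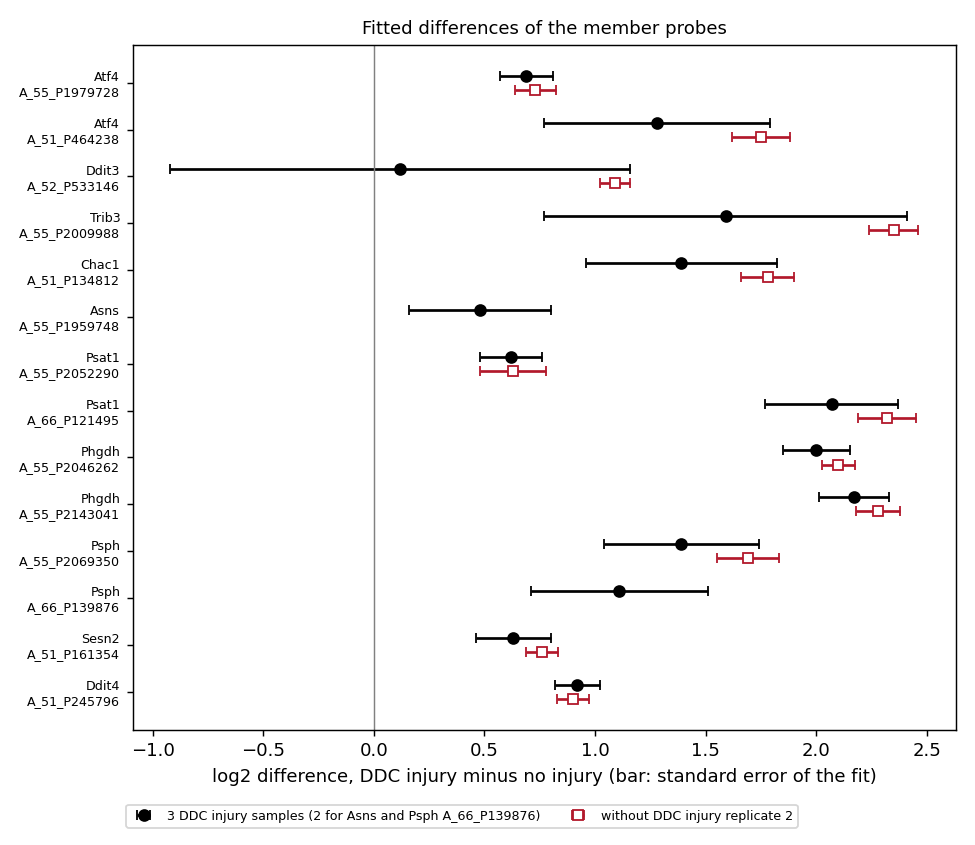
Difference between DDC injury and no-injury cells for each of the 14 probes in log2 units, with bars for the standard error of the limma fit. Phgdh stands at 2.00 and 2.17 with narrow bars, and Ddit3 at 0.12 and Trib3 at 1.59 have the wide bars (SE 1.04 and 0.82) of probes in which DDC injury replicate 2 stood apart.

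DDC injury replicate 2 was singled out after these values were seen, so what follows is a description without a test. It was the lowest DDC injury array in 10 of the 12 member probes with a value on all 3, against 31.8% of all such tested probes. In 4 of the 12 (Atf4 probe A_51_P464238, Ddit3, Trib3 and Chac1) it lay at least 1 log2 unit below the mean of replicates 1 and 3, against 3.81% of all such probes. For all tested probes the median of that difference was 0.10, and 7.78% lay at least 1 log2 unit above, on a scale that sets every array to its own 75th percentile. Before that scaling, the 75th percentile of the processed signal was lowest in replicate 2, at 1440.7, against 1572.0 to 2270.8 on the other 5 arrays. Replicate 3, which was scanned together with replicate 2, was close to replicate 1 in these probes. The part of the array's signal in these lower levels was not tested.

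The number of calls turned on this array. Without DDC injury replicate 2, 11 of 12 tested member probes were higher, against 20.5% of all probes: Ddit3 by 1.09 ± 0.069 (adjusted p = 0.00722), Trib3 by 2.35 ± 0.11 (adjusted p = 0.00528), Chac1 by 1.78 ± 0.12 (adjusted p = 0.0074), Sesn2 by 0.76 ± 0.073 (adjusted p = 0.0118) and Atf4 probe A_51_P464238 by 1.75 ± 0.13 (adjusted p = 0.00845) gained the call. Psat1 probe A_55_P2052290 lost it. This fit has 2 samples in each group and leaves out the array that was low in these same probes. That choice raises their differences and narrows their spread, so the calls and p-values of this fit are no test of them. Without DDC injury replicate 3, 4 of 14 were higher, against 9.2% of all probes. With all 6 arrays counted separately, 9 of 14 were higher, against 22.6% of all probes. Without no-injury replicate 2, or with all no-injury arrays merged into a single sample, 0 of 14 passed in limma, and 5 had an unadjusted p under 0.05 in each.

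Other ATF4 targets were read from a list of 30 genes, of which 27 were tested. Among them 2 were higher, 1 was lower and 24 did not pass, where 16.2% of all 15661 genes were higher and 14.6% were lower. The median difference was 0.79, against -0.07 for all genes. Slc38a2, a sodium-coupled carrier of neutral amino acids, rose by 1.14 ± 0.13 (2.21-fold, adjusted p = 0.00761). Cth, which makes cysteine from cystathionine, read 2.05, -0.67 and 1.92 in DDC injury cells, against -2.59, -2.71 and -2.63 in no-injury cells, and rose by 3.76 ± 0.95 (13.6-fold, adjusted p = 0.048). Cbs, which makes that cystathionine, was the 1 gene lower, at -0.72 ± 0.11 (adjusted p = 0.0161).

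In other genes of this list DDC injury replicate 2 also stood apart, at different heights relative to the no-injury arrays. Slc7a11, the cystine carrier, read 1.33, -1.94 and 1.13 in DDC injury cells, against -3.55, -3.39 and -3.60 in no-injury cells (difference 3.66 ± 1.13, adjusted p = 0.0782), so that replicate 2 lay between the other DDC injury arrays and the no-injury arrays. Ppp1r15a (GADD34), which brings phosphatase to eIF2alpha, read 3.42, 0.33 and 3.34 in DDC injury cells, against 1.16, 1.11 and 1.18 in no-injury cells (1.22 ± 1.09, adjusted p = 0.457). Atf3, a stress-induced factor of the ATF family, read 2.15 and -1.35 in DDC injury replicates 1 and 2, against 0.25, 0.09 and 0.25 in no-injury cells, with its replicate 3 spot marked and left out (0.24 ± 1.35, adjusted p = 0.913). In Ppp1r15a and Atf3, as in Ddit3, replicate 2 lay below the no-injury arrays and replicate 1 above them.

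Aldh1l2, a mitochondrial enzyme that oxidises formyl-folate, was chosen for mention after its values were seen. It read 1.64, -3.00 and 1.61 in DDC injury cells, against -2.81, -2.72 and -2.86 in no-injury cells (2.86 ± 1.65, adjusted p = 0.263). In 13 of the 26 genes of the list with a value on all 3 DDC injury arrays, replicate 2 lay at least 1 log2 unit below the mean of the other DDC injury arrays, against 4.59% of all genes. Without replicate 2, 20 of 26 tested genes were higher and 1 was lower, against 22.0% and 18.8% of all genes, with Slc7a11 at 4.71 (adjusted p = 0.004) and Ppp1r15a at 2.24 (adjusted p = 0.0044). Since the array left out was low in many of these genes, these calls are a description and no test.

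**Figure D3:**
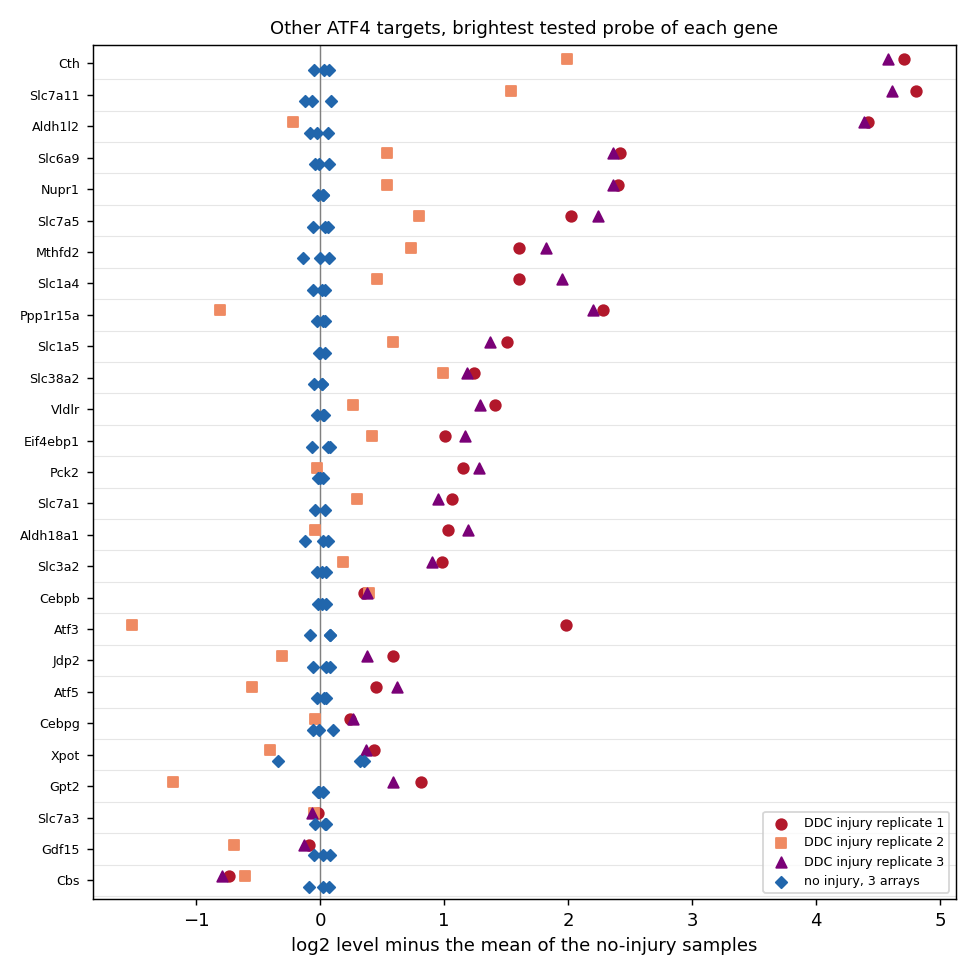
Level of each of the 27 tested genes of the list of other ATF4 targets on the 6 arrays, in log2 units from the mean of the no-injury samples, by the probe with the highest mean signal. For most genes replicates 1 and 3 of DDC injury lie together on the right, and replicate 2 lies nearer to the no-injury diamonds or left of them.

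**Figure D4:**
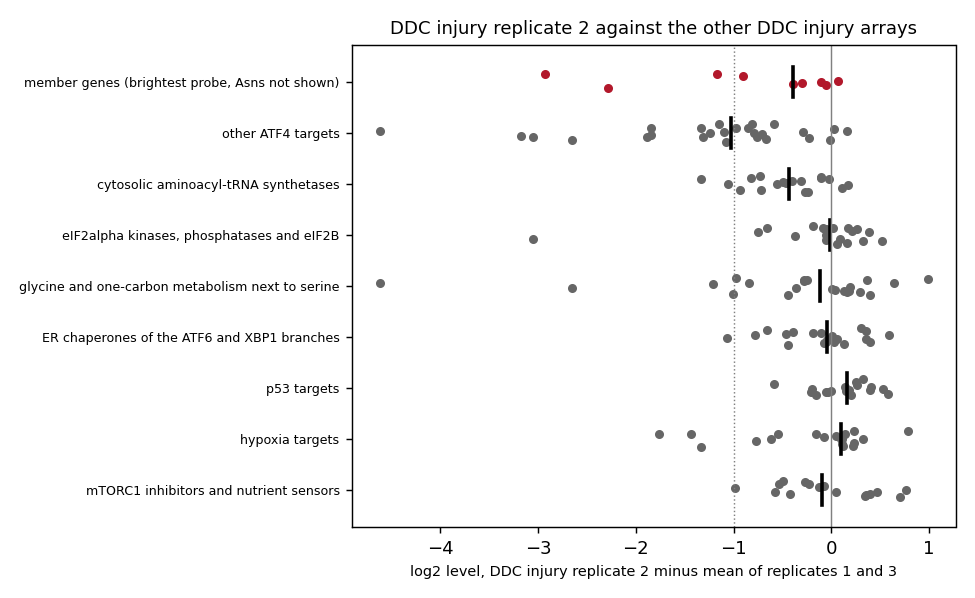
DDC injury replicate 2 minus the mean of DDC injury replicates 1 and 3 for each gene with a value on all 3 arrays, in log2 units, by gene list, with black bars at the medians and a dotted line at -1. The median is -1.03 for other ATF4 targets and -0.43 for tRNA synthetases, and between -0.12 and 0.16 for the other 6 lists. The member genes, by their brightest probes, run from -2.93 for Ddit3 to 0.07 for Ddit4, and the middle value is -0.39 for Sesn2. Asns is not drawn because its replicate 3 spot was left out.

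Cytosolic aminoacyl-tRNA synthetases, which charge tRNAs and many of which are known ATF4 targets, were tested for 19 of 20 genes. Of these 5 were higher, 0 were lower and 14 did not pass, against 16.2% of all genes higher and 14.6% lower, with a median of 0.53. At an unadjusted p under 0.05, 12 were higher and 0 lower (limma), which those adjusted shares do not match in threshold. At the same unadjusted threshold, 10 of the 27 other ATF4 targets were higher and 1 lower. Of the 20 chaperones and degradation genes of the ATF6 and XBP1 branches, read below, 10 were higher and 3 lower. Cars rose by 1.05 ± 0.14 (2.08-fold, adjusted p = 0.00995), Hars by 0.85 ± 0.11 (1.80-fold, adjusted p = 0.00996) and Vars by 0.87 ± 0.17 (1.83-fold, adjusted p = 0.0274). These charge cysteine, histidine and valine. Without DDC injury replicate 2, 12 of 18 were higher, against 22.0% of all genes, which is a description as well.

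Upstream of ATF4, the list of eIF2alpha kinases, phosphatases and eIF2B subunits had 2 of 20 genes higher, 1 lower and 17 that did not pass, against the same 16.2% and 14.6% of all genes, with a median of 0.25. Of the kinases, Eif2ak3 (PERK), the sensor of unfolded protein in the endoplasmic reticulum, read 1.13, 1.18 and 0.90 in DDC injury cells, against 1.44, 1.67 and 1.76 in no-injury cells, and fell by 0.57 (SE 0.14, adjusted p = 0.0423). Eif2ak1 (HRI) had a difference of -0.46 ± 0.15 (adjusted p = 0.0878), Eif2ak2 (PKR) 0.02 ± 0.21 (adjusted p = 0.959) and Eif2ak4 (GCN2) 0.05 ± 0.12 (adjusted p = 0.784). No kinase mRNA was therefore called higher, and kinase activity was not measured. Ppp1r15b, the constitutive partner of the eIF2alpha phosphatase, rose by 0.86 ± 0.10 (adjusted p = 0.00835). Eif2s3x, the X-linked gamma subunit of eIF2, rose by 1.38 ± 0.19 (2.60-fold, adjusted p = 0.011).

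Among 22 genes that carry serine on into glycine and one-carbon units, or break these down, 4 were higher, 2 were lower and 16 did not pass, against 16.2% of all genes higher and 14.6% lower, with a median of 0.13. The count of higher genes was thus close to the share over all genes. Cth, which was higher, and Cbs, which was lower, are also counted in the list of other ATF4 targets. Mthfd2 and Aldh1l2 are shared between these lists too. Gcat, a mitochondrial enzyme of threonine and glycine metabolism, rose by 1.33 ± 0.11 (2.52-fold, adjusted p = 0.00408). Mthfd1l, which releases formate from mitochondria, read 3.18, 2.38 and 3.26 in DDC injury cells, against 1.00, 0.95 and 0.93 in no-injury cells, and rose by 1.98 ± 0.32 (3.96-fold, adjusted p = 0.0159). Cytosolic Shmt1, which converts serine to glycine, rose by 0.70 ± 0.12 (adjusted p = 0.0201).

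The mitochondrial partners of the pathway, Shmt2 and Mthfd2, did not pass. Shmt2 read 3.94, 2.77 and 4.02 in DDC injury cells, against 2.68, 2.78 and 2.68 in no-injury cells (0.85 ± 0.44, adjusted p = 0.224). Mthfd2 read 0.77, -0.10 and 0.99 in DDC injury cells, against -0.97, -0.76 and -0.83 in no-injury cells (1.38 ± 0.37, adjusted p = 0.056). Replicate 2 was the lowest DDC injury array in both, and for Shmt2 it lay within the no-injury range. Sdsl, a serine dehydratase-like enzyme, fell by 1.82 (SE 0.23, adjusted p = 0.00967).

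Stress of the endoplasmic reticulum also acts through ATF6 and XBP1, and of 20 chaperones and degradation genes of these branches 5 were higher, 2 were lower and 13 did not pass, against 16.2% of all genes higher and 14.6% lower, with a median of 0.46. Manf, a stress-induced secreted protein, rose by 0.87 ± 0.11 (adjusted p = 0.0092), Creld2, another stress-induced protein of this compartment, by 1.19 ± 0.16 (adjusted p = 0.0111) and the chaperone Hyou1 by 0.87 ± 0.19 (adjusted p = 0.0329). Herpud1 and Sel1l, which serve the degradation of misfolded proteins, fell by 0.87 (adjusted p = 0.0134) and by 0.76 (adjusted p = 0.0367). Hspa5 (BiP), the main chaperone of this compartment, read 4.62, 4.89 and 5.04 in DDC injury cells, against 4.30, 4.39 and 4.41 in no-injury cells (0.48 ± 0.16, adjusted p = 0.097). In 1 of the 20 genes replicate 2 lay at least 1 log2 unit below the other DDC injury arrays, with a list median of -0.04.

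Sesn2 and Ddit4 answer to other signals as well, so 3 more lists were read, each to be set against the 16.2% of all genes that were higher and the 14.6% that were lower. Of 18 tested p53 targets, 6 were higher and 2 lower, with a median of 0.27. Aen, a nuclease, Cdkn1a, which encodes the cell-cycle inhibitor p21, and Phlda3, an inhibitor of AKT, rose by 1.06 (adjusted p = 0.00688), 1.09 (adjusted p = 0.00795) and 1.03 (adjusted p = 0.0102), and Sesn1 and Plk2 fell by 0.91 (adjusted p = 0.0289) and 0.46 (adjusted p = 0.0407). Of 20 hypoxia targets, 5 were higher and 0 lower, with a median of 0.33 and, at an unadjusted p under 0.05, 6 higher and 1 lower (limma). Ankrd37 rose by 1.29 (adjusted p = 0.00392), the MYC antagonist Mxi1 by 0.67 (adjusted p = 0.0426) and the glycolytic enzyme Pgk1 by 0.96 (adjusted p = 0.0428). Mxi1 was well above background on 2 DDC injury arrays and 1 no-injury array, and Pgk1 has 2 DDC injury values.

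Of 16 tested mTORC1 inhibitors and nutrient sensors, 1 was higher and 2 were lower, against 16.2% and 14.6% of all genes, with a median of -0.19. Sesn3, a paralogue of Sesn2, rose by 0.87 (adjusted p = 0.0144), while Sesn1 and Tsc2, the GTPase-activating subunit of the TSC complex, fell by 0.91 (adjusted p = 0.0289) and by 0.83 (adjusted p = 0.0371). Of the 3 sestrins, Sesn3 was thus higher, Sesn1 was lower and Sesn2 did not pass. In 0 genes of the p53 and mTORC1 lists and in 3 of 19 hypoxia genes did replicate 2 lie at least 1 log2 unit below the other DDC injury arrays.

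Markers of cell identity and growth moved with the groups too, and in bulk RNA fewer cells of a type and less RNA per cell cannot be told apart. The 4 proliferation markers (Mki67, Top2a, Plk1 and Ccnb1) were all higher, with a summed level of 27.5 to 28.7 times the 75th percentile in DDC injury arrays, against 2.10 to 2.18 in no-injury arrays. Of the 5 hepatocyte markers 3 were lower, Alb, Ttr and Apoa1, and Apoa1 was not well above background on any DDC injury array. Hnf4a and Cps1 were not called, with differences of -0.09 and -1.04. The summed level of the 5 was 11.0 to 17.6 in DDC injury cells, against 29.5 to 33.7 in no-injury cells. Hnf4a, at 3.65, 3.91 and 3.34, carries most of the sum in DDC injury cells. Of 5 cholangiocyte and progenitor markers 2 were lower, Epcam and Sox9. Krt19, Krt7 and Spp1 were not called, with differences of 0.37, 0.16 and -0.25. The summed level of the 5, in which Spp1 as the brightest weighs most, was 50.5 to 55.7 in DDC injury cells, against 59.0 to 59.9. Of 3 tested mesothelial markers 2 were lower: Wt1, well above background on 1 DDC injury array, and Upk3b, on 0, which passed the filter through the no-injury arrays alone. The summed level of this list, which Msln carries, was 22.2 to 27.9 in DDC injury cells, against 21.6 to 24.1 in no-injury cells. Stellate, endothelial and leukocyte markers had 0 calls in 11 tested genes (limma; at an unadjusted p under 0.05, 0 higher and 1 lower), with summed levels of at most 0.559 in DDC injury and 0.532 in no-injury arrays. Cd63, the gene of the sort marker, had a difference of -0.11 (adjusted p = 0.677). Proliferation markers were as high in DDC injury replicate 2 as in the other DDC injury arrays, whereas Alb (-5.52 against -7.23 and -7.41) and Ttr (1.32 against -0.20 and -0.34) were higher there. The part of these markers in the differences of the 10 genes was not tested.

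The genes most like a member over the 6 arrays were found by the root mean square difference of centred log2 levels among 14687 genes, as a description. For Atf4 probe A_55_P1979728 these included Nipa1 (0.037) and Nop58 (0.042). For Phgdh probe A_55_P2046262 they were Hmgn5 (0.038), Dbf4 (0.044) and Gstcd (0.052). For Ddit3 the nearest were Extl1 (0.172), Hoxb4 (0.184) and Hoxb7 (0.212), which lay farther away. Hoxb4 and Hoxb7 had low levels, at -7.87 and -7.65 in DDC injury replicate 2. None of the genes named here as alike is on the list of other ATF4 targets. That list is so small a part of the genes ranked that this says little.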

How the data were processed

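Arrays of design 026655 were read by Feature Extraction 11.0.1.1, per the file headers. The deposited intensity used is its processed signal, after subtraction of background and detrending. The authors also deposited a table of log2 values, normalized between arrays, used as an alternative. The submitters' processing notes name limma without a version. Spots marked as outliers were left out, repeated spots averaged, and log2 signals set relative to each array's 75th percentile. Probes with signal well above background on 3 or more of the 6 arrays, and at least 2 values per group, were tested with limma 3.58.1 in R 4.3.3 (two-sided, Benjamini-Hochberg over 27428 probes, threshold 0.05; prior degrees of freedom 1.4). Differences are DDC injury minus no injury with the standard error of the fit.

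Probes were named through their transcript in a RefSeq table (27234 probes with 1 symbol, 12195 with none). In the 8 other lists a gene is its tested probe with the highest mean signal. Named genes are every member, the eIF2alpha kinases, Atf3, Ppp1r15a, Slc7a11, Shmt2, Mthfd2, Hspa5, markers, the 3 genes most alike to each of Atf4, Phgdh and Ddit3, and up to 3 genes each way per list with the smallest adjusted p; 1 gene that this rule takes is not reported here, and Aldh1l2 falls outside it. Members and lists were chosen with earlier results of these data known. In 5 simulated runs of 3 against 2 samples over 27047 probes, few probes were shifted and both groups had the same spread. The fit recovered 0.896% of shifts of 2-fold, 57% of 4-fold and 73.6% of 8-fold, with 5 false calls per run. In the data 8031 probes passed and the groups differed in spread, so these rates do not carry over to the data. The number of arrays limits the precision.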

Additional observations from a re-analysis of the deposited data

How the results depend on the processing

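Of 18 alternative settings, none called a member probe lower. DDC injury replicate 1 was the only array of its scan day. Scan day as a covariate therefore gave the same differences as leaving out that replicate, and these 2 settings are not independent. Member probes called higher numbered 5 to 9, against 7, in the settings that left out no replicate and had at least 2 no-injury samples. They ranged from 0 to 11 when 1 replicate was left out, with 11 without DDC injury replicate 2, 4 without DDC injury replicate 3 and 0 without no-injury replicate 2. With all no-injury arrays merged into a single sample, 0 member probes and 0 listed genes in either direction passed in limma, and 412 probes in all, while 5 member probes, 18 listed genes higher and 4 lower had an unadjusted p under 0.05. Over the 8 other lists, 29 of the 155 tested genes were higher and 8 lower, against 16.2% and 14.6% of all genes. The count of higher genes was thus close to the share over all genes. The counts of 29 and 8 became 63 and 16 with all 6 arrays counted separately, against 23.9% and 22.3% of all genes. That setting called 12140 probes in all, against 8031. Without the filter on dim probes the counts were 15 and 3, where 2956 of all 39105 probes were higher and 2494 lower. With the scan as a random block they were 19 and 3, where 3106 of all 27441 probes were higher and 2716 lower. Leaving out 1 replicate gave 0 to 68 higher, 0 to 17 lower and 400 to 10257 probes in all.

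The Ddit3 difference turned to -0.0049 in the authors' values and to -0.36 with scan day as a covariate, and ranged from -0.37 to 1.09 with 1 replicate left out. The Phgdh, Ddit4 and A_66_P121495 Psat1 calls were lost only with 1 no-injury sample in all settings that tested them. The median of all probes, -0.098 in the scale used, was 0.004 after quantile normalization, 0.079 after normexp and -0.019 in the authors' values. Deviations of same-numbered replicates correlated at 0.122, 0.036 and 0.083, and those of differently numbered replicates at -0.142 to 0.054. These weak values do not settle whether the numbers pair the samples. With the replicate number as a block, 8 member probes were higher, 31 listed genes higher and 7 lower. In that setting 4360 of all 27441 probes were higher and 4200 lower. Keeping the marked spots, chosen after seeing the data, left 7 member probes higher. The causes of these shifts were not tested.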
